A study of Mus musculus with 4 samples.

Results

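Of the 45706 features counted, 6 genes of lysophosphatidic acid (LPA) biology were followed through the stem, neuronal and glial nuclei of the adult mouse dentate gyrus. They were the receptor gene Lpar1, the secreted enzyme gene Enpp2 and the phospholipid phosphatase-related genes Plppr1, Plppr3, Plppr4 and Plppr5. The 6 genes were chosen by their UMI levels across these clusters, so the levels are given as a description and carry no test. Single-nucleus RNA-seq had been run on 4 libraries, taken at week 1, 2, 4 or 8 after tamoxifen and called w1, w2, w4 and w8. All mice carried the same alleles, a tamoxifen-inducible CreERT2 driver and CAG floxStop-Sun1/sfGFP, all received tamoxifen, and they were male and female animals of 6 to 8 weeks of age. The methods do not say whether this was the age at tamoxifen or at collection, so age at collection may differ between weeks. Cre activity in the cells that used the driver switched on a green nuclear membrane tag that was kept by the progeny, and tagged nuclei were sorted. Each library held the left dentate gyri of 4 mice as a single pool, so a week had no replicate and weeks were not tested. Untagged nuclei were not analysed here.

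LPA is a lipid messenger that is made outside cells by autotaxin, the product of Enpp2, from lysophosphatidylcholine. It acts on G protein-coupled receptors, of which LPA1, the product of Lpar1, is known in neural progenitors and in myelinating cells. The Plppr proteins (plasticity-related genes) are brain-enriched membrane proteins that resemble lipid phosphate phosphatases but lack residues needed for catalysis, and are known for effects on filopodia, neurite growth and, for Plppr4 at glutamatergic synapses, on signalling by LPA.

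The 6 genes lie on 4 chromosomes of GRCm38, with every coordinate covering the whole gene, introns included. Lpar1 (ENSMUSG00000038668) lies at chr4:58435255-58553898 on the minus strand and Plppr1 (ENSMUSG00000063446) at chr4:49059273-49340259 on the plus strand. Plppr3 (ENSMUSG00000035835) is the shortest, 14.2 kb at chr10:79860475-79874634 on the minus strand, and Enpp2 (ENSMUSG00000022425) lies at chr15:54838901-54952892, also on the minus strand. Plppr4 (ENSMUSG00000044667, chr3:117319139-117360876, minus) and Plppr5 (ENSMUSG00000033342, chr3:117574836-117689507, plus) are neighbours that point away from each other, with 214 kb and 0 annotated genes between them. The count files name the Plppr genes by their older symbols, Lppr1, Lppr3, Lppr4 and Lppr5.

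Sequence just upstream of 3 Plppr genes is shown, those whose RefSeq windows held bases before the first annotated transcript start. A link between these bases and the levels described below was not tested. Each stretch is genomic sequence from RefSeq (GRCm38.p6) on the gene's own strand, ending at the base before the first annotated transcript start, with CG pairs in capitals. The Plppr1 stretch is chr4:49059212-49059272 (plus), the Plppr3 stretch chr10:79874635-79874884 (minus) and the Plppr4 stretch chr3:117360877-117361126 (minus). The 87 bases of the Plppr3 stretch nearest its start also lie under an exon of a non-coding transcript of Prtn3 on the other strand.
Plppr1: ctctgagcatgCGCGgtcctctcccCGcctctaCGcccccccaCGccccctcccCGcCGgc
Plppr3: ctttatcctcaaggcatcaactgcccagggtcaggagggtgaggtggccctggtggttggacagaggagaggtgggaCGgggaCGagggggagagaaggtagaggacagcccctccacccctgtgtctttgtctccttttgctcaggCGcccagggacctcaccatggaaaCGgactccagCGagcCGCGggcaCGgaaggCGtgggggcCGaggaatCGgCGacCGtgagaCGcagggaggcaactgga
Plppr4: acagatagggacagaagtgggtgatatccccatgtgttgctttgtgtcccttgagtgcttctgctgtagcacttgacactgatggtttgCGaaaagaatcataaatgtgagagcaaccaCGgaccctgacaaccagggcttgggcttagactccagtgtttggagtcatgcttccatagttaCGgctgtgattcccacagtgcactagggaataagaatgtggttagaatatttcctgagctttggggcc

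Over the 250 bases before the RefSeq start, Plppr1 held 64.4% G or C and 19 CG pairs, Plppr3 64.4% and 14, and Plppr5 61.6% and 13. The Plppr4 window held 48.0% and 3 CG pairs, against medians of 52.4% and 6 over all 32851 promoter windows of this length. These windows can lie inside transcripts of other annotated starts of the same gene: 61 of the 250 bases lay before the first annotated start for Plppr1 and 0 for Plppr5 and for each Lpar1 start, which is why no sequence is printed for the last 2 genes. The 3 RefSeq starts of Lpar1 had 11, 28 and 3 CG pairs, and Enpp2 was not among the matched entries, so that 5 of the 6 genes were matched. The E-box CAGATG, or CATCTG on the other strand, known for Neurod and Neurog factors, was found in 1 gene, at 162 to 157 bases before the third Lpar1 start. Both strands were searched, and CAGATG was present in 14.4% of all windows.

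The authors' filters left 14367 nuclei of 17046 barcodes, with 13227971 to 28595331 UMIs (unique RNA molecules counted) per library and a median of 4369 to 7703.5 UMIs per nucleus. The deposited 13 clusters were used as named by the authors, and any pair of libraries shared 1 to 6 kept barcodes. They comprised astrocytes (Astro, 67 nuclei), radial glia-like stem cells (RGL, 1387), neural progenitor cells (NPC, 211), neuroblasts (NB1, 2578, and NB2, 726), immature granule cells (GCimm1, 2442, and GCimm2, 979), young granule cells (GCyoung, 2176), mature granule cells (GCmat1, 3356, and GCmat2, 209), oligodendrocyte precursors (OPC, 131), oligodendrocytes (Oligo, 45) and a cluster named Peri (60). Markers of Astro, NPC, OPC and Oligo were all highest in their own cluster, and 3 of 4 for RGL. Peri went against its label: 6 of 6 leptomeningeal markers were highest there, but only 2 of 4 pericyte markers, with Rgs5 and Higd1b at 0, and it is called by its label alone. Clusters and weeks were tied, since GCmat1 held 2927 nuclei from w8 against 17 from w1, and NB1 held 1492 from w1 and 0 from w8. Levels are given in CPM, the UMIs of the gene for every 1000000 UMIs of the same nuclei, with library values only where a library had at least 10 nuclei in the cluster. Intervals and limits cover counting error only.

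Lpar1, the LPA receptor gene, was a gene of stem cells, oligodendrocytes and the Peri cluster and was close to absent from neurons. In RGL w1 had 196 CPM, w2 137, w4 159 and w8 134, a mean of 156 CPM ± 28.8 (SD, n = 4 libraries). The w1 value was the highest, from 486 nuclei, and the w8 value the lowest, from 83. NPC held 28.1 CPM in w1, 33.9 in w2 and 52.4 in w4, all below every RGL value, and the pooled level was 5.16-fold lower in NPC than in RGL. NB1 held 1.57 to 2.24 CPM in its 3 libraries, 19.2-fold lower than NPC when pooled, and no later neuronal cluster exceeded 1.74 CPM when pooled or 2.66 CPM in any library.

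Oligo and Peri nuclei also held Lpar1, whereas no UMI of it was found in astrocytes or OPC. Oligo reached 638 CPM in w2, 250 in w4 and 449 in w8, all above the RGL values, and 2.44-fold above RGL when pooled. Peri held 539 CPM in w1 and 891 in w2, a range that overlapped that of Oligo. Astrocytes held 0 Lpar1 UMIs of 335189, which allows up to 8.95 CPM, so the RGL level was at least 18.3-fold higher. OPC also held 0, and relative to them the level was at least 36.9-fold higher in RGL and at least 90.2-fold higher in Oligo. In nuclei, 39.9% of RGL (95% exact binomial interval 37.4 to 42.6), 77.8% of Oligo and 86.7% of Peri had an Lpar1 UMI, against 10.9% of NPC and 0.478 to 0.860% of the neuronal clusters. The median depth was 4091 UMIs in RGL and ranged from 4057.5 in NB1 to 8138 in GCmat1 among the neuronal clusters. With every nucleus thinned to 2000 UMIs the shares were 23.7% in RGL, 3.88% in NPC and 60% in Oligo.

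Along the authors' pseudo-time, a position assigned to each nucleus on the way from RGL to mature granule cell, Lpar1 was lost within the progenitor stretch. It stood at 185 CPM between 0 and 1, 147 between 1 and 2 and 141 between 2 and 3. It was down to 58.7 CPM between 7 and 8, 23.1 between 8 and 9 and 0 between 9 and 10, where NB1 nuclei began, and at most 2.29 CPM later.

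Enpp2, which encodes autotaxin, was highest in oligodendrocytes. Its Oligo level was 1425 CPM in w2, 1130 in w4 and 1258 in w8, and 44 of the 45 Oligo nuclei (97.8%) had at least 1 UMI. In OPC w1 had 261 CPM, w2 287, w4 200 and w8 206, a mean of 239 ± 42.3 (SD, n = 4 libraries), with no overlap with Oligo. The step from OPC to Oligo was 5.52-fold when pooled. OPC thus held Enpp2 without any Lpar1 UMI. Neuronal clusters held 0 to 7.56 CPM of Enpp2, with a UMI in 0 to 3.17% of nuclei, and astrocytes 11.9 CPM.

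The RGL, NPC and Peri levels of Enpp2 came largely from a handful of nuclei. In RGL w1 had 111 CPM, w2 179, w4 83.9 and w8 92.4. NPC held 132 CPM in w1 and 0 in w2 and w4, and Peri 1811 in w1 and 311 in w2. Across all clusters 6 nuclei had 10 or more UMIs of the choroid plexus genes Ttr, Folr1, Kl and Clic6: 4 of RGL, 1 of NPC and 1 of Peri. These 6 nuclei held 31 to 208 choroid UMIs and 59 to 225 Enpp2 UMIs each, together 722 of all 1843 Enpp2 UMIs, and 0 Lpar1 UMIs. Without them the pooled Enpp2 level went from 128 to 48.7 CPM in RGL, from 72.3 to 2.20 in NPC and from 771 to 229 in Peri. By library, RGL then had 54.1 CPM for w1, 45.6 for w2, 34.1 for w4 and 92.4 for w8, and Peri 45.5 in w1 and 311 in w2. Enpp2 remained in RGL as a low, spread signal: 197 of the other RGL nuclei (14.2%) had a UMI and none more than 5. No OPC or Oligo nucleus was among the 6, so the levels there were as given above, and Lpar1 in RGL was 164 CPM with and 165 CPM without the 6 nuclei. The limit on choroid UMIs was chosen after the data had been seen.

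**Figure D1:**
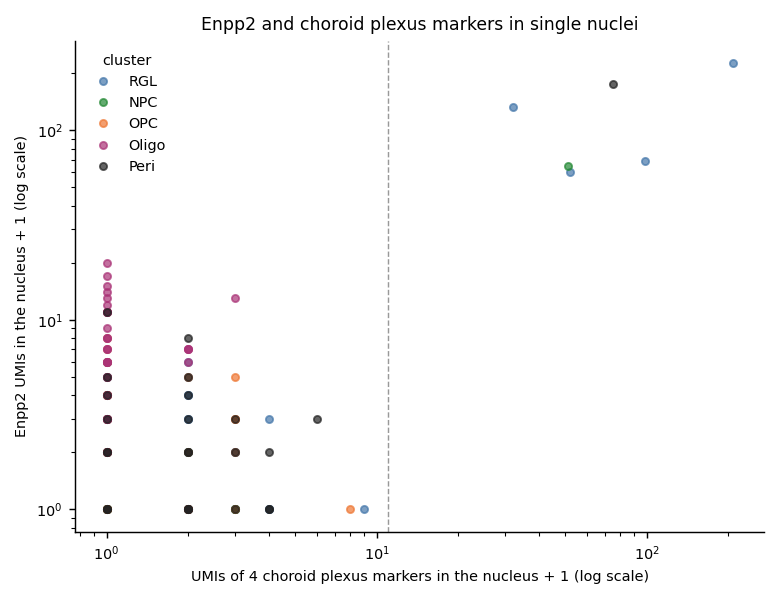
Each point is 1 or more nuclei of the RGL, NPC, OPC, Oligo or Peri cluster, with nuclei of the same cluster, library and UMI counts drawn once. UMIs of the 4 choroid plexus markers plus 1 are on the x axis and Enpp2 UMIs plus 1 on the y axis, both on log scales. The dashed line marks 10 choroid UMIs. The 6 nuclei to its right hold 59 to 225 Enpp2 UMIs each, and Oligo nuclei are high in Enpp2 at 0 to 2 choroid UMIs.

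Along pseudo-time Enpp2 was 56.6 CPM between 0 and 1, 44.5 between 1 and 2 and 15.7 between 2 and 3. Of the 6 choroid-positive nuclei, 5 had a pseudo-time, all at 3.16, which lies in a stretch with under 20 nuclei that was not used.

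**Figure D2:**
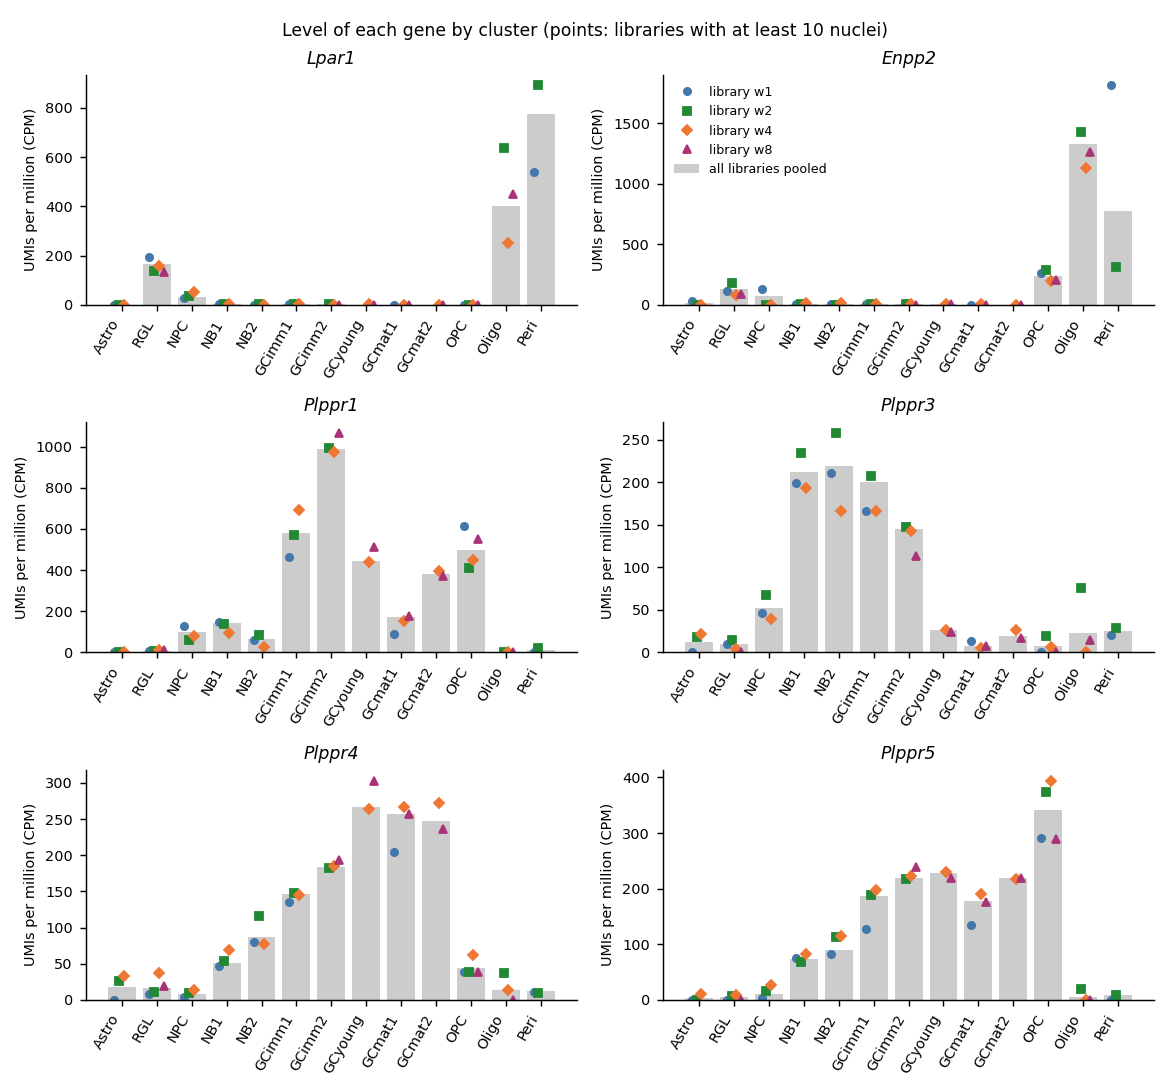
Level of each gene in CPM (linear y axis from 0) in the 13 clusters on the x axis; bars are all libraries pooled and points are the libraries with at least 10 nuclei in the cluster. Lpar1 is high in Peri, Oligo and RGL and at 0 in Astro and OPC, Enpp2 is highest in Oligo, Plppr1 peaks in GCimm2 at 988 CPM, Plppr3 is high from NB1 to GCimm2, and Plppr4 and Plppr5 are high in all granule cell clusters.

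Plppr1 was the most abundant of the 6 genes in UMIs, 30657 in all, and was highest in the later immature granule cells. GCimm2 held 992 CPM in w2, 975 in w4 and 1066 in w8, a mean of 1011 ± 48.2 (SD, n = 3 libraries), above every value of every other cluster. GCimm1, the preceding stage, held 461 CPM in w1, 569 in w2 and 693 in w4. NB1 held 149, 138 and 94.1 CPM in w1, w2 and w4, and RGL 7.05 to 12.7 CPM in 4 libraries. The fitted log2 change was 3.21 (SE 0.37) from RGL to NPC, 2.23 (SE 0.21) from NB1 to GCimm1 and 0.88 (SE 0.20) from GCimm1 to GCimm2. After GCimm2 the level was lower: GCyoung held 437 CPM in w4 and 511 in w8, and GCmat1 89.7 in w1, 150 in w4 and 177 in w8. The log2 change was -0.90 (SE 0.23) to GCyoung and then -1.58 (SE 0.23) to GCmat1, a 5.72-fold difference in pooled level between GCimm2 and GCmat1. GCmat2, a smaller cluster of mature cells, held 393 CPM in w4 and 373 in w8, 2.19-fold above GCmat1 when pooled.

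The level of Plppr1 did not go up steadily, since it passed through a low point in neuroblasts. Along pseudo-time the level was 8.54 CPM between 0 and 1, 236 between 9 and 10, 47.7 (95% interval 39.0 to 57.8) between 12 and 13, and 1007 between 20 and 21. The bin between 12 and 13 held 510 nuclei, most of them NB1. In w1 the level went from 241 CPM between 9 and 10 to 45.2 at the low point, and in w2 from 262 to 53.7. In w4, whose bins held only 23 and 21 nuclei, it went from 100 CPM between 10 and 11 to 40.1 (interval 8.27 to 117) between 12 and 13. The bins compared were picked after the values had been seen, as the highest early and the lowest later bin of each library. The search ranges shared a bin, so the direction was fixed by this choice and is no separate result. Between these picked bins the folds were 5.33 in w1, 4.87 in w2 and 2.50 in w4. Their counting intervals did not overlap in w1 (186 to 307 and 34.8 to 57.7) or w2 (182 to 364 and 37.8 to 74.1). The w4 interval takes in the earlier value. The NB2 cluster also lay below NB1 in each library, at 62.0 against 149 CPM in w1, 85.0 against 138 in w2 and 25.6 against 94.1 in w4.

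Outside the neuronal course Plppr1 differed between precursors and mature cells of the oligodendrocyte lineage. The OPC values were 614 CPM for w1, 409 for w2, 451 for w4 and 551 for w8, and these overlapped those of GCimm1 and GCyoung, whereas Oligo held 0 UMIs. The OPC level was at least 36.3-fold higher than that of Oligo. A UMI was found in 80.9% of OPC nuclei and in 0 of 45 Oligo nuclei, at median depths of 4750 and 4801 UMIs. In GCimm2 97.2% of nuclei had a UMI, or 82.3% after thinning to 2000 UMIs, and in RGL 3.17% before thinning. Astrocytes held 0 UMIs.

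Plppr3 marked the early part of the neuronal course. NB2 held 210 CPM in w1, 258 in w2 and 167 in w4, NB1 198, 234 and 193, and GCimm1 166, 207 and 166. These 3 clusters overlapped in their library values. GCimm2 held 147 CPM in w2, 142 in w4 and 113 in w8, all below every GCimm1 value, but the fitted log2 change from GCimm1 to GCimm2 was -0.17 (SE 0.18), within 1 SE of 0. NPC, the stage before, held 46.1 CPM in w1, 67.8 in w2 and 39.3 in w4. GCyoung held 26.7 CPM in w4 and 24.4 in w8, a log2 change of -1.97 (SE 0.23) from GCimm2. The next change, -1.74 (SE 0.26), led to GCmat1, which held 12.8 CPM in w1, 4.99 in w4 and 7.74 in w8. NB1 stood 28.2-fold above GCmat1 when pooled.

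The pseudo-time course of Plppr3 peaked at 247 CPM between 11 and 12, in NB1. By library the peak lay at 237 CPM between 12 and 13 in w1, at 317 between 11 and 12 in w2 and at 241 between 11 and 12 in w4. By highest and lowest bin, the Plppr3 peak came before the Plppr1 low point in the pooled nuclei, w2 and w4. In w1 both lay in the same bin. These bins do not resolve an order, because between 11 to 12 and 12 to 13 the counting intervals of each gene overlapped throughout. In w2 Plppr1 held 53.9 CPM between 11 and 12 and 53.7 between 12 and 13. In w4 Plppr3 held 241 CPM (counting interval 151 to 364) and 227 (132 to 364) in these bins. The share of nuclei with a Plppr3 UMI was 65.2% in NB2 and 5.99% in GCmat1, although GCmat1 nuclei had a median of 8138 UMIs and NB2 nuclei 4961. In OPC 3.82% of nuclei had a UMI. The OPC level of Plppr3 was 7.41 CPM, against 496 for Plppr1 and 341 for Plppr5. Divided by gene span these levels lay closer together, at 0.523, 1.77 and 2.97 CPM per kb. The Plppr3 gene overlaps Ptbp1 and Prtn3 on the other strand, which had 1275 and 800 UMIs in all nuclei against 7686 for Plppr3.

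**Figure D3:**
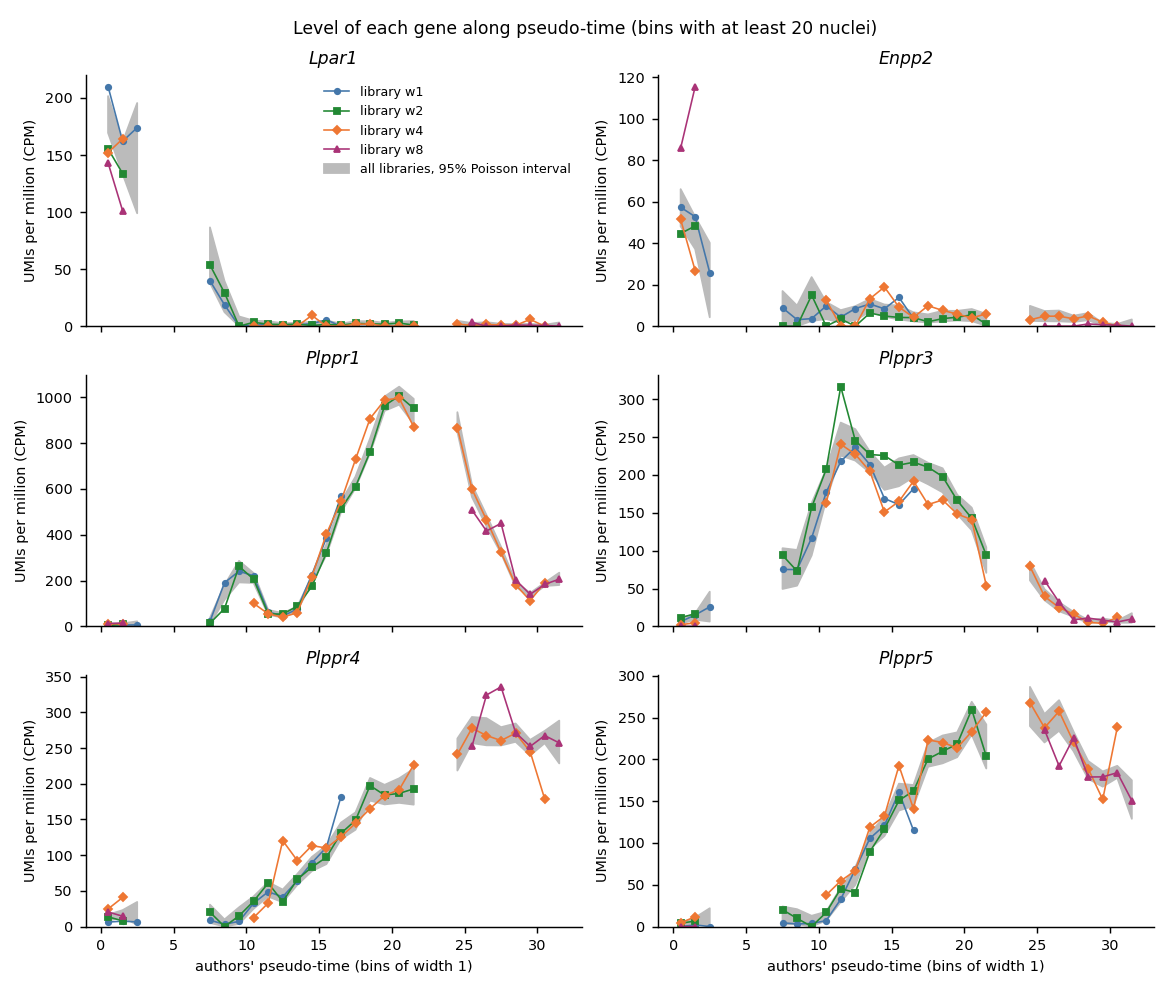
Level in CPM (y axis) along the authors' pseudo-time (x axis, no unit) in bins of width 1 with at least 20 nuclei, all libraries together and each library by itself. Lpar1 is highest at the start, Plppr1 shows 236 CPM between 9 and 10, 47.7 between 12 and 13 and 1007 between 20 and 21, Plppr3 peaks between 11 and 12, and Plppr4 and Plppr5 climb and stay high.

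Plppr4 stood higher in each successive neuronal cluster up to young granule cells and was kept in mature cells. Its level was 47.5 to 69.5 CPM in the 3 libraries of NB1, 76.9 to 116 in NB2, 136 to 148 in GCimm1 and 182 to 193 in GCimm2, and none of these ranges overlapped with the next. GCyoung reached 264 CPM in w4 and 303 in w8, GCmat1 205 in w1, 267 in w4 and 257 in w8, and GCmat2 272 in w4 and 237 in w8, and these 3 did overlap. The fitted log2 change was 3.16 (SE 0.51) from NPC to NB1, 1.45 (SE 0.19) from NB1 to GCimm1, 0.38 (SE 0.19) to GCimm2 and 0.75 (SE 0.21) to GCyoung. The change from GCyoung to GCmat1 was -0.06 (SE 0.19). RGL had 7.83 CPM for w1, 10.3 for w2, 37.5 for w4 and 19.1 for w8, and NPC 4.01 to 13.1 CPM. NPC was lowest when pooled, at 7.66 CPM from 7 UMIs. Its counting interval, 3.08 to 15.8 CPM, overlapped those of Astro, RGL, Oligo and Peri. A UMI was found in 80.1% of GCyoung nuclei and in 3.32% of NPC nuclei, whose median depths were 7458 and 4278 UMIs, and in 39.4% and 2.43% after thinning to 2000 UMIs.

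Plppr5, the neighbour of Plppr4, followed a like course in neurons but had its highest level in OPC. In OPC w1 had 291 CPM, w2 375, w4 394 and w8 290, a mean of 338 ± 54.9 (SD, n = 4 libraries), above every value of every other cluster. Oligo held 1 UMI, and the ratio of OPC to Oligo was 74.8-fold when pooled (exact 95% counting interval 13.3 to 2968). Among neurons Plppr5 was 67.8 to 82.9 CPM in NB1, 82.5 to 115 in NB2, 128 to 197 in GCimm1 and 218 to 240 in GCimm2. GCyoung held 229 CPM in w4 and 219 in w8, inside the GCimm2 range, and GCmat1 held 134 in w1, 191 in w4 and 176 in w8. The log2 change was 3.06 (SE 0.42) from NPC to NB1, 1.26 (SE 0.18) to GCimm1 and 0.40 (SE 0.18) to GCimm2, then 0.24 (SE 0.20) to GCyoung and -0.26 (SE 0.19) to GCmat1. In RGL 1.73% of nuclei had a UMI against 74.8% in OPC, or 52.7% in OPC after thinning. In OPC Plppr4 was below Plppr5, with 38.3 CPM for w1, 38.9 for w2, 62.6 for w4 and 39.0 for w8. Divided by gene span, the pooled OPC levels were 1.06 CPM per kb for Plppr4 and 2.97 for Plppr5.

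**Figure D4:**
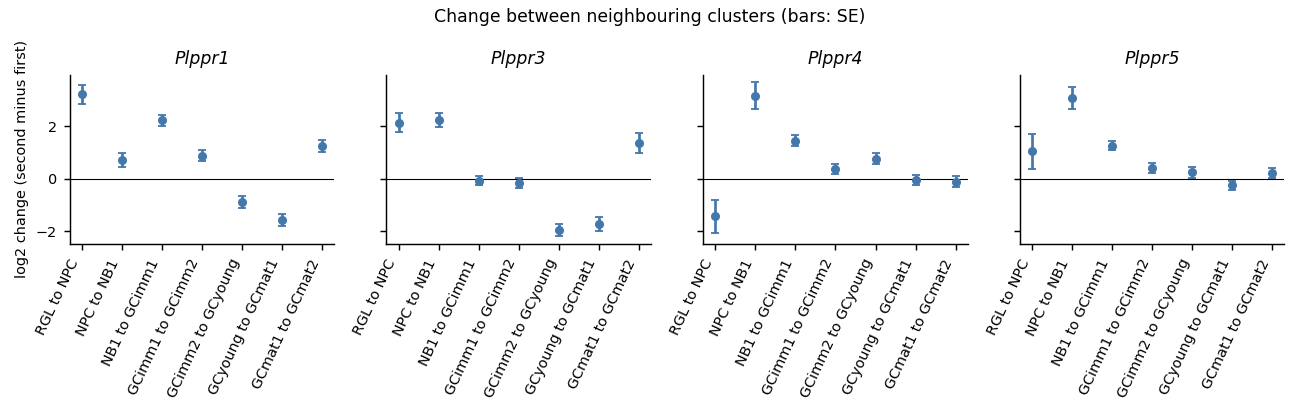
Fitted log2 change of the 4 Plppr genes between clusters of the neuronal course from RGL to GCmat1, without NB2, and from GCmat1 to GCmat2 (y axis, second minus first cluster, bars are SE from the fit over library sums). GCmat2 had no pseudo-time, so the last change is not a step along it. From GCimm2 to GCyoung the change is -0.90 for Plppr1 and -1.97 for Plppr3, against 0.75 for Plppr4 and 0.24 for Plppr5, and from GCmat1 to GCmat2 it is 1.25 for Plppr1 and 1.35 for Plppr3.

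Set side by side on the scale of CPM per kb of gene span, the leading gene among Plppr1, Plppr3, Plppr4 and Plppr5 differed between clusters. Plppr1 led in none of those given here, and Plppr2 was not put on this scale. Plppr3 led in NB1 with 14.9 CPM per kb, against 1.21 for Plppr4, 0.633 for Plppr5 and 0.507 for Plppr1. In GCimm2, where Plppr1 was highest, it had 3.52, against 10.2 for Plppr3 and 4.39 for Plppr4. In GCyoung Plppr4 led with 6.38, against 1.99 for Plppr5, 1.87 for Plppr3 and 1.58 for Plppr1. In OPC Plppr5 led with 2.97, followed by Plppr1 with 1.77 and Plppr4 with 1.06. The span is a rough divisor, because 3′ UMIs and priming inside introns do not scale with length in a fixed way.

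Over the 13 pooled clusters the Pearson r of log2(CPM + 1) was 0.91 for Plppr1 with Plppr5, 0.87 for Plppr4 with Plppr5, 0.72 for Plppr1 with Plppr4 and 0.19 to 0.34 for Plppr3 with the other Plppr genes. Lpar1 and Enpp2 had r = 0.79, or 0.62 over the 38 sums of a library and a cluster, with the 6 choroid-positive nuclei included in the Enpp2 levels. These 13 points share libraries and depth and are a description.

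Among 11203 genes the patterns most like those of the 6 were found by the same r over 13 clusters. Nearest to Plppr1 were Lrrfip1 (0.97), 4930444P10Rik (0.96) and Ptprn2 (0.96). Nearest to Plppr3 were Actr1a (0.97), Sema3c (0.95) and Tbr1 (0.95), and nearest to Plppr4 were Caln1, Fstl4 and Fam135b, all with 0.98. Plppr5 was most like Sntg1 (0.98), Tub (0.97) and Nkain3 (0.96), Lpar1 most like Cd82 (0.94), Nod1 (0.93) and Spice1 (0.92), and Enpp2 most like Pskh1, Tbccd1 and Rhoc, all with 0.96. Over the 38 sums of a library and a cluster the r of Cd82 with Lpar1 was 0.89, that of Ptprn2 with Plppr1 0.93 and that of Caln1 with Plppr4 0.91, whereas that of Spice1 with Lpar1 was 0.26, that of Pskh1 with Enpp2 0.46 and that of Tbccd1 with Enpp2 0.59. The Enpp2 values include the 6 choroid-positive nuclei. The lists changed with the measure: by Spearman's rank correlation 2 of the 3 genes were again among the nearest 3 for Plppr1, 1 for Plppr3, 1 for Enpp2 and 0 for Lpar1, Plppr4 and Plppr5. Over the sums 2 were again among the nearest 3 for Lpar1, 1 each for Plppr1, Plppr3 and Enpp2 and 0 for Plppr4 and Plppr5.

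Mature granule cells of w8 were not uniform for these genes. In GCmat1 216 of the w8 nuclei had no pseudo-time and 2711 had one. Per the study's methods, GCmat1 nuclei in which genes of the ventral hippocampus were strongly expressed were left out of the pseudo-time. These nuclei may therefore have been picked by their expression. The methods give more such nuclei than the GCmat1 nuclei without a pseudo-time here. Ventral genes were not examined, so whether these nuclei are that set was not tested. The nuclei without held 238 CPM of Plppr1 against 170, 14.6 of Plppr3 against 7.02, 210 of Plppr4 against 262 and 138 of Plppr5 against 180, and none of these pairs of 95% counting intervals overlapped. These nuclei come from 1 library, so the difference has no replicate check.

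The rest of the pathway was read from 44 further genes for LPA and sphingosine-1-phosphate receptors, LPA production, phospholipid phosphatases and acyltransferases, Plppr2, and G proteins and their effectors. All 6 genes described above passed the low-count filter, as did 31 of the 44, whereas 13, among them Lpar2, Lpar3 and Lpar5, did not. Sums of UMIs per library and cluster were compared with edgeR, and a gene was called when it changed 1.5-fold or more with a p, adjusted by Benjamini-Hochberg over 11548 genes, of 0.05 or less. The clusters had been made from these same counts, so a call is no independent test. It describes the size of a step against how much differences between clusters vary from library to library. The other LPA receptors were low: in Peri Lpar2 had 9.48 CPM (3 UMIs), Lpar3 3.16 (1 UMI) and Lpar4 37.9 (12 UMIs), and in Oligo Lpar6 had 22.8 CPM (5 UMIs). The counts of Lpar2 and Lpar3 are too few to say in which cluster they were highest, since 0 UMIs in Oligo allows up to 13.7 CPM. Plppr2, the remaining Plppr gene, was highest in GCyoung like Plppr4, with 153 CPM there against 8.95 in astrocytes.

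From Astro to RGL 6 of the 31 genes were called, all lower, against 11.0% of all genes tested (594 higher and 675 lower). Gpam, an acyltransferase of LPA synthesis, went from 152 to 25.6 CPM (log2 -2.60, SE 0.33) and S1pr1, a sphingosine-1-phosphate receptor, from 182 to 45.2 (log2 -2.02, SE 0.31). Plpp4, a phosphatase gene, went from 38.8 CPM (13 UMIs) to 0.492 (3 UMIs). Lpar1 had its values on the other side, 0 UMIs in Astro and 164 CPM in RGL. From RGL to NPC 2 genes rose and 7 fell, 9 of 31, against 31.6% of all genes (1709 higher and 1945 lower). Plpp3, an LPA-degrading phosphatase of astrocytes and stem cells, went from 1460 to 367 CPM (log2 -2.39, SE 0.23), S1pr1 to 6.57 CPM and Gpam to 7.66 CPM.

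From NPC to NB1 5 rose and 6 fell, 11 of 31, against 31.4% of all genes (1783 higher and 1847 lower). Without w1 6 were called, and also 6 without w4, against 2534 and 3316 of all genes. Agpat4, an acyltransferase that uses LPA, went from 24.1 to 82.4 CPM (log2 2.06, SE 0.30), Plpp4 from 2.19 to 21.4 CPM (log2 3.47, SE 0.80) and Plcb3, a phospholipase C, from 14.2 to 3.58 (log2 -1.80, SE 0.58). From NB1 to GCimm1 3 rose and 3 fell, against 13.2% of all genes (928 higher and 600 lower). Among the called genes were Plcb4, from 229 to 77.4 CPM (log2 -1.15, SE 0.17), Plcb1, from 1364 to 541 (log2 -0.95, SE 0.22), and Plpp4, from 21.4 to 67.9 (log2 1.95, SE 0.22). From GCimm1 to GCimm2 2 rose and 2 fell, against 9.89% of all genes (783 higher and 359 lower). Without w2 1 gene was called and without w4 2, against 430 and 854 of all genes. DESeq2 called 0 higher and 2 lower, against 555 and 180 of all genes. Plcb4 went to 3.74 CPM (log2 -4.34, SE 0.29), Plpp3 from 66.5 to 19.9 (log2 -1.48, SE 0.28) and Plpp1 from 24.0 to 41.6 (log2 0.99, SE 0.27).

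From GCimm2 to GCyoung 3 rose and 4 fell, against 19.6% of all genes (1079 higher and 1189 lower). RLE scaling gave 2 higher and 7 lower, against 915 and 1439 of all genes, and DESeq2 2 and 6, against 605 and 1057. Without w4 or without w8, which left GCyoung with 1 library, fewer genes were called, of the list and of all genes. Plppr2 went from 95.2 to 153 CPM (log2 1.04, SE 0.20) in the step in which Plppr1 and Plppr3 had negative changes, Plcb1 from 580 to 1189 (log2 1.08, SE 0.25) and Plpp3 from 19.9 to 6.87 (log2 -1.58, SE 0.36). From GCyoung to GCmat1 only Plpp4 was called, from 54.7 to 25.3 CPM (log2 -1.45, SE 0.23), against 4.23% of all genes (197 higher and 292 lower). Plpp4 was no longer called without w4, which left GCyoung with 1 library. From GCmat1 to GCmat2 3 genes were called, against 7.91% of all genes (402 higher and 511 lower). Plpp4 went to 224 CPM (log2 3.32, SE 0.24), Plcb4 from 1.88 to 30.1 (log2 3.96, SE 0.40) and Gna12 from 36.4 to 16.0 (log2 -1.29, SE 0.28). From OPC to Oligo 2 rose and 7 fell, 9 of 31, against 20.0% of all genes (774 higher and 1530 lower). Plcb1 went from 1484 to 31.9 CPM (log2 -5.79, SE 0.45) and Plpp4 from 354 CPM to 0, at least 25.9-fold lower, in the step in which Plppr1 went to 0 UMIs, Plppr5 to 1 UMI and Enpp2 from 240 to 1325 CPM. Plpp5 went from 20.7 CPM, 14 UMIs, to 0, at least 1.52-fold lower.

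The median log2 change of the 31 genes lay between -0.32 and 0.09, and that of all genes between -0.43 and 0.21. Having 1 direction in every library that held both clusters was a condition for naming a gene in a step, so it is no separate result. Libraries that held both clusters were 3 up to GCimm1 and for OPC to Oligo and 2 in the other steps. Scaling moved the median of all genes by over 0.1 in the steps from Astro to RGL, 0.21 with TMM and 0.05 with RLE, and from OPC to Oligo, -0.43 and -0.30.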

How the data were processed

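Nuclei of 4 pooled samples had been profiled with 10x Chromium 3.1 3′ chemistry. The authors mapped reads to GRCm38 with STARsolo 2.7.4a, counting exonic and intronic UMIs and leaving out multimapped reads, and deposited raw counts per gene and nucleus. The authors also deposited a table of log2 normalised expression, from which only nuclei, clusters and pseudo-time were taken here; its filters on features, doublets, outliers and mitochondrial reads and its removal of outlier clusters were the authors'. All 6 genes and the pathway list were chosen with earlier results of these data known.

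UMIs were summed over nuclei and divided by all UMIs of the same nuclei (CPM), with exact Poisson 95% intervals, exact Clopper-Pearson intervals for shares and 3 counts as the limit of a 0. Thinning to 2000 UMIs left out 141 shallower nuclei. Sums with at least 10 nuclei (38 sums, 13 clusters) entered 1 fit in edgeR 4.0.16 (filterByExpr, TMM, quasi-likelihood test, terms for cluster and library) under R 4.3.3. The authors processed 2 time points a day, which ones is not given in the sources used here. Since a library is a week and has its own term, p-values rest on how differences between clusters vary from pool to pool. The spread of a gene was estimated over all clusters together. DESeq2 1.42.0, RLE factors, other filters, thresholds and libraries left out in turn were alternatives. For each step the 3 called list genes of largest change with 1 direction in every library were named, with list genes highest in the cluster of a member of their role, and for each of the 6 genes the 3 with the highest Pearson r of log2(CPM + 1) over clusters among genes with at least 20 CPM somewhere. Python 3.11.15, numpy 2.4.6, scipy 1.17.1 and pandas 2.3.3 were used. The gene whose promoter drives Cre is not reported here.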

Additional observations from a re-analysis of the deposited data

Results flagged for a closer look

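As a description, Plppr4 in OPC had 1 library apart from the other 3: w4 held 62.6 CPM (95% counting interval 30.0 to 115), against 38.3 in w1 (12.5 to 89.5), 38.9 in w2 and 39.0 in w8 (15.7 to 80.3). Its gap to the nearest library was 0.973 of the range of the 4, above the 95% critical value of Dixon's ratio. The counting intervals overlap, the w4 value rests on 10 UMIs, and the 4 libraries are different weeks rather than replicates. Of 11 groups of 4 libraries examined this way 1 stood out, and chance gives about 1 in 20.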

How the results depend on the processing

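The highest cluster of each of the 6 genes was named on pooled UMIs. Dividing by the genes of the deposited expression table alone raised the highest level to 1510 CPM for Plppr1, 324 for Plppr3, 416 for Plppr4, 458 for Plppr5 and 1946 for Enpp2. Thinning nuclei to 2000 UMIs put Plppr5 in OPC at 401 CPM. Thinned shares of nuclei with a UMI in the highest cluster, an alternative added after the data were seen, were 65% for Lpar1, 82.3% for Plppr1, 33% for Plppr3, 39.4% for Plppr4, 52.7% for Plppr5 and 86.7% for Enpp2.
Raising the fold change to 2 left 4 list genes called from RGL to NPC, 6 from NPC to NB1, 2 from NB1 to GCimm1, 2 from GCimm1 to GCimm2 and 3 from GCimm2 to GCyoung. Over all genes it left, in this order, 2716, 2748, 958, 667 and 1449. DESeq2 called 2 from GCimm1 to GCimm2, as did a fit with no library term, against 735 and 863 of all genes. With each library left out in turn the counts ranged from 5 to 7 from Astro to RGL, 7 to 10 from RGL to NPC, 6 to 12 from NPC to NB1, 4 to 6 from NB1 to GCimm1, 1 to 4 from GCimm1 to GCimm2 and 7 to 10 from OPC to Oligo. Calls over all genes ranged, in this order, from 828 to 1363, 2697 to 3731, 2534 to 3722, 812 to 1572, 430 to 1166 and 1700 to 2253. Without w1 and without w2 6 were called from GCimm2 to GCyoung, 1 from GCyoung to GCmat1 and 3 from GCmat1 to GCmat2. Over all genes these were 1778 to 2430, 467 to 562 and 867 to 1072. Fits without w4 or w8 left 1 library of GCyoung and of GCmat2 and called no more list genes than these in any of these steps. With each library left out, the highest levels ranged from 546 to 884 CPM for Lpar1, 981 to 994 for Plppr1, 209 to 249 for Plppr3, 263 to 295 for Plppr4, 324 to 359 for Plppr5 and 1254 to 1428 for Enpp2. Of 582 changes of the 6 genes under alternatives, 22 changed sign. By size, 527 stayed within 1 SE, 53 moved further and 2 were counted as reversed: Enpp2 from NPC to NB1 (log2 6.36 without w1, -3.42 without w2) and from GCyoung to GCmat1 (log2 0.054 without w8, -1.996 without w4). NPC held 0 Enpp2 UMIs in w2 and w4; the cause of the other was not tested. Sums of at least 20 nuclei left no Oligo sum, and the fit on trajectory clusters left out OPC and Oligo, so neither was run for that step. Clusters were compared within libraries through the library term. Depth limits what a count of 0 can show in the small clusters, with 219664 UMIs in Oligo, 316576 in Peri and 335189 in Astro.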
